A study of Homo sapiens with 18 samples.

Results

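Unstimulated THP-1 cells in which NR4A3 was knocked down were compared with unstimulated control THP-1 cells. The comparison took the 3 libraries titled shNR4A3 and control against the 3 titled shNT and control, 6 of the 18 libraries in the series, and all genes were considered. THP-1 is a human monocytic leukaemia line. One line had received lentiviral particles carrying a short hairpin RNA (shRNA) against NR4A3 (shNR4A3), and the other a non-targeting shRNA (shNT). Both lines were grown under puromycin, a drug that kills cells without the transgene, and whether either is a single clone is not stated in the sources used here. The hairpin's sequence and target site were not given in them either, so no target site is shown. For the experiment both were placed in buffered DMEM with fetal bovine serum, incubated for 2 h and left a further 2 h without LPS. The other 12 libraries came from a line with an shRNA against NR4A2 (shNR4A2) without LPS and from all 3 lines after 2 h with LPS at 2.5 μg/ml, and give values to set beside those of this comparison.

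NR4A3 belongs to the NR4A family with NR4A1 and NR4A2. These are orphan nuclear receptors, which act without a bound ligand, and immediate early genes whose transcripts climb quickly when a cell is stimulated. A single receptor molecule (a monomer) can bind a short DNA element, the NBRE. In monocytes and macrophages the family is known for its part in the control of inflammatory genes.

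The files hold 57500 genes, of which 37854 had a read in at least 1 of the 6 libraries. The shNT libraries had 21068626, 17132910 and 19654525 counted reads and the shNR4A3 libraries 17694355, 16566072 and 18039169. Levels are given as TPM, the count divided by the gene's length and scaled to the same sum in each library, with 3 values for the 3 libraries of a group in order. Fold changes are shNR4A3 over shNT on the log2 scale, with their standard error (SE), from edgeR's quasi-likelihood test, and a gene was called at an adjusted p under 0.05.

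One library stood apart before any gene was tested. In shNR4A3 replicate 2, 23149 genes had a read, against 28805 and 26312 in its group and 26247, 26241 and 26590 in the shNT libraries. The nuclear RNAs MALAT1, NEAT1 and KCNQ1OT1 together took 0.016% of its reads, against 0.0484% and 0.0378% in its group and between 0.0386% and 0.0658% in shNT. Mitochondrial genes took 1.05% of its reads, against 2.12% and 2.04% in its group and 1.45%, 1.96% and 1.31% in shNT. Of the libraries set beside this comparison, shNR4A2 replicate 2 without LPS was alike in 2 of these measures, with 23968 genes and 0.014% nuclear RNA against 28930 and 28407 genes and 0.0404% and 0.0527% in its group, and had 1.48% mitochondrial reads against 1.76% and 1.92%. The counts of the pathway lists are therefore also given without shNR4A3 replicate 2, in the same order of direction.

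The libraries had the transcripts of monocytic cells. All 16 monocytic markers had at least 1 TPM in shNT cells, and the most abundant was CTSG, the granule protease cathepsin G. Of 64 markers of other cells 18 were high enough to be tested. The summed level was at most 6.89 TPM over 8 T cell genes, 17.2 TPM over 7 B cell genes and 13.3 TPM over 9 erythroid or megakaryocytic genes in any of the 6 libraries, with CD8B, MS4A1 and HBB at 0 in all of them. The 8 NK cell genes summed to 41.9 to 60.0 TPM, nearly all of it the granule gene NKG7 (log2 fold change -0.34, adjusted p = 0.154), with KLRD1 at 0. The 9 epithelial, 8 fibroblast, 7 endothelial and 8 neural genes each summed to under 4 TPM, with the most abundant at KRT8, COL1A1, KDR and SNAP25 and with LUM, STMN2 and SOX10 at 0. Of the 18 tested, 3 changed. PAX5, a B cell factor, fell by 1.87 (adjusted p = 0.000357) and KDR by 2.64 (adjusted p = 0.000957), while CD5, a T cell surface protein, rose by 1.18 (adjusted p = 0.021), a call that ended without any shNT library or shNR4A3 replicate 3 (adjusted p from 0.054 to 0.104).

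The targeted transcript was lower in the line named for it. NR4A3 (ENSG00000119508, GRCh38 chromosome 9, 99821855 to 99866891) had 0.556, 0.693 and 0.512 TPM in shNT cells and 0.158, 0.107 and 0.0315 TPM in shNR4A3 cells. The groups did not overlap, and the mean fell by 83.1%. The log2 fold change was -2.47 (SE 0.499, adjusted p = 0.00767), and it rests on 58 reads over the 3 shNT libraries and 9 over the 3 shNR4A3 libraries. With a library left out in turn the adjusted p stayed between 0.0113 and 0.0447, and DESeq2 gave -2.52 with no adjusted p. The exact permutation test on 3 libraries against 3 cannot go below a two-sided p of 0.1.

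The other family members did not pass the test. NR4A1 had 9.08, 7.16 and 6.34 TPM in shNT cells and 4.02, 8.37 and 5.10 TPM in shNR4A3 cells, with a log2 fold change of -0.34 (SE 0.216, adjusted p = 0.412). NR4A2 had 4.16, 2.83 and 4.08 TPM against 2.51, 2.97 and 3.31 TPM, at -0.29 (SE 0.212, adjusted p = 0.494). Both pairs of groups overlapped, as the plot of the 3 transcripts shows, but for NR4A1 only through shNR4A3 replicate 2, without which it was at -0.65 (adjusted p = 0.0647). In the unstimulated shNT line NR4A3 was the least abundant of the 3 in every library.

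**Figure D1:**
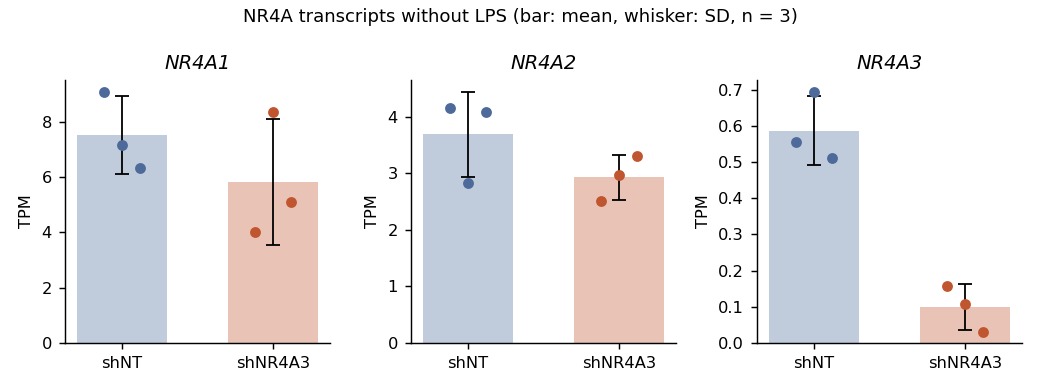
Level of NR4A1, NR4A2 and NR4A3 in unstimulated shNT and shNR4A3 cells, in TPM on a linear axis that differs between panels. Points are libraries, bars are means and whiskers are SD (n = 3). The groups overlap for NR4A1 and NR4A2, while the 3 shNR4A3 libraries have 0.158 TPM of NR4A3 or less against 0.512 TPM or more in shNT.

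Of 15322 genes tested, 1108 were called, or 7.23%. Of these, 599 (3.91% of the tested genes) were higher in shNR4A3 cells and 509 (3.32%) were lower. A change of at least 2-fold was reached by 282 genes (1.84%), 116 higher and 166 lower, and a test against the 2-fold limit itself passed 35. Most changes were small, with a median of 1.61-fold among the called genes and 447 of them under 1.5-fold. At 4-fold or more there were 12 higher and 31 lower. Without shNR4A3 replicate 2 there were 975 calls, 497 higher and 478 lower, which held 816 of the 1108. Leaving out another library took away more calls, with 831 without shNT replicate 1, 650 without shNT replicate 2, 649 without shNT replicate 3, 674 without shNR4A3 replicate 1 and 657 without shNR4A3 replicate 3. Blocking on the replicate number gave 2267 calls, 1239 higher and 1028 lower, which held all 1108. As background for the counts below, 14.8% of all genes tested were called with the block (8.09% higher and 6.71% lower), 6.16% without shNR4A3 replicate 2 (3.14% and 3.02%) and 7.64% by DESeq2 (4.3% and 3.34%), and 20.9% had an unadjusted p under 0.05 (10.7% and 10.2%). The median log2 fold change over all tested genes was -0.003.

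**Figure D2:**
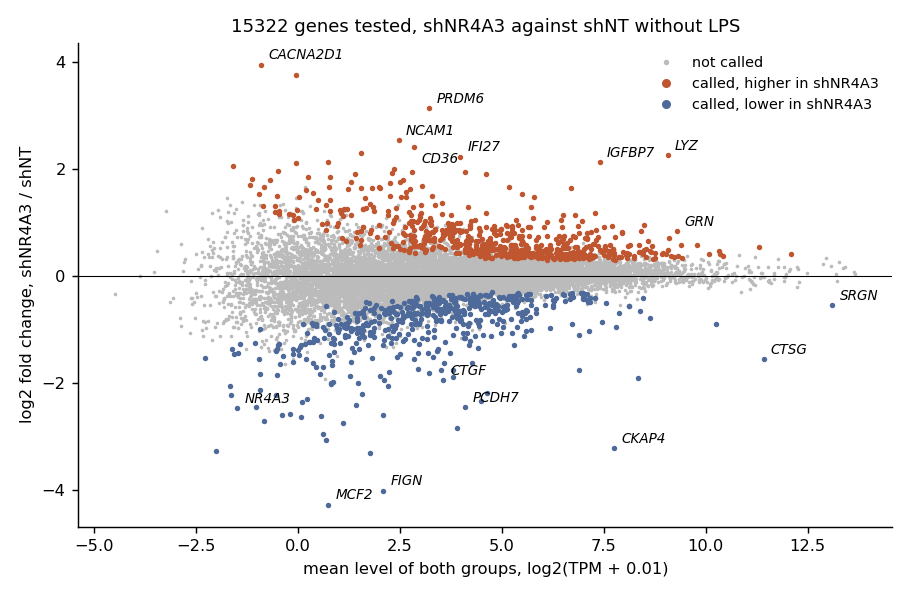
Log2 fold change (shNR4A3 over shNT) against the mean level of both groups as log2(TPM + 0.01), for the 15322 genes tested. Orange points are called higher and blue points called lower. CKAP4, CTSG and SRGN are abundant genes among the 509 lower, and LYZ, IGFBP7 and GRN among the 599 higher, while MCF2, FIGN, PRDM6 and CACNA2D1 are low in level and far from 0.

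The largest rise among protein-coding genes with a group mean of at least 1 TPM was that of PRDM6, which encodes a transcriptional repressor of the PR domain family (ENSG00000061455, chromosome 5, 123089121 to 123194266). It had 1.92, 1.87 and 2.05 TPM in shNT cells and 16.6, 17.7 and 15.3 TPM in shNR4A3 cells. The groups lay far apart and each varied little, for a log2 fold change of 3.13 (SE 0.119, adjusted p = 1.04e-08). CACNA2D1, an auxiliary subunit of voltage-gated calcium channels (chromosome 7, 81946444 to 82443798), rose further but to a lower level. Its levels were 0.0390, 0.0231 and 0.127 TPM against 0.708, 1.21 and 1.04 TPM, a log2 fold change of 3.94 (SE 0.457, adjusted p = 0.000158). The long non-coding RNA LINC00461 went with them, from 0.114, 0.101 and 0.185 TPM to 1.78, 2.05 and 1.52 TPM (log2 fold change 3.74, adjusted p = 2.32e-05).

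LYZ, CD36 and NCAM1 were among the 15 protein-coding genes of at least 1 TPM that rose most. LYZ, the bacterial cell wall enzyme lysozyme (chromosome 12, 69348341 to 69354234), had 198, 177 and 202 TPM in shNT cells and 1040, 708 and 901 TPM in shNR4A3 cells. Its log2 fold change of 2.25 (SE 0.137, adjusted p = 6.72e-07) came with the largest gain in mean TPM of any called gene but TMSB4X and GPX1. CD36, a scavenger receptor for oxidised lipoprotein (chromosome 7, 80369575 to 80679277), went from 2.64, 1.71 and 2.73 TPM to 15, 8.70 and 12.4 TPM, a log2 fold change of 2.41 (SE 0.214, adjusted p = 1.86e-05). NCAM1, the neural cell adhesion molecule CD56, had 1.79, 1.57 and 1.61 TPM against 6.54, 9.80 and 11.7 TPM (log2 fold change 2.54, adjusted p = 3.81e-06). In all 3 genes the lowest shNR4A3 library was above the highest shNT library by more than the range of the shNT libraries.

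Among the other strong rises were IGFBP7, a secreted binder of insulin-like growth factors, with 62.4, 72.4 and 59.5 TPM in shNT cells and 246, 307 and 266 TPM in shNR4A3 cells (log2 fold change 2.12, SE 0.113, adjusted p = 2.08e-07). VCAN, the matrix proteoglycan versican, rose by a log2 of 1.95 (adjusted p = 6.64e-06), and KCNK13, a leak potassium channel, by 1.94 (adjusted p = 5.3e-05). MPEG1, a pore-forming protein of macrophages, rose by 1.89 (adjusted p = 2.32e-05), CD101, an inhibitory receptor, by 1.91 (adjusted p = 0.000345), and MCUB, a subunit of the mitochondrial calcium uniporter, by 1.84 (adjusted p = 0.00325). Each of these 6 kept its call with any 1 library left out. C1QC, a chain of complement C1q, and PDGFRL, a receptor-like protein, did not. They were at 2.13 (adjusted p = 0.0226) and 1.96 (adjusted p = 0.0216). The call of C1QC ended by DESeq2 (adjusted p = 0.0517) and without shNT replicates 1 or 3 or shNR4A3 replicates 1 or 3 (0.0507 to 0.101), and that of PDGFRL without any library but shNR4A3 replicate 2 (0.0518 to 0.112).

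The largest fall was that of MCF2, the guanine nucleotide exchange factor DBL (ENSG00000101977, chromosome X, 139581770 to 139708227). It had 3.38, 2.79 and 3.27 TPM in shNT cells and 0.239, 0.136 and 0.0797 TPM in shNR4A3 cells, for a log2 fold change of -4.28 (SE 0.347, adjusted p = 8.6e-06). FIGN, the microtubule-severing enzyme fidgetin (chromosome 2, 163593396 to 163736012), had 7.70, 6.60 and 9.76 TPM against 0.401, 0.819 and 0.240 TPM (log2 fold change -4.02, SE 0.269, adjusted p = 1.43e-06). Both were under 1 TPM in every shNR4A3 library.

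CKAP4, a membrane protein that links the endoplasmic reticulum to microtubules, was the abundant gene that fell most (chromosome 12, 106237877 to 106304279). It had 381, 404 and 392 TPM in shNT cells and 32.2, 52.6 and 38.3 TPM in shNR4A3 cells. The mean fell by 89.5%, and the log2 fold change was -3.22 (SE 0.135, adjusted p = 1.83e-08). HUNK, a protein kinase, was at -3.07 (adjusted p = 3.46e-05), IGSF10 at -2.96 (adjusted p = 8.84e-06), BEX1 at -2.83 (adjusted p = 1.79e-05) and the progestin receptor PAQR5 at -2.60 (adjusted p = 5.93e-06). KDR, the receptor VEGFR2, fell by 2.64 on the log2 scale (adjusted p = 0.000957), BRSK2, a neuronal kinase, by 2.63 (adjusted p = 6.42e-05), PCDH7, a protocadherin, by 2.45 (adjusted p = 3.2e-07) and MSRB3, a methionine sulfoxide reductase, by 2.33 (adjusted p = 2.08e-07). The membrane proteins TMEM92 and TMEM176B fell by 2.60 and 2.41 (adjusted p = 0.00283 and 0.00199), EXOC3L2, related to an exocyst subunit, by 2.58 (adjusted p = 0.00469) and TCEA3, an elongation factor, by 2.31 (adjusted p = 0.00114). All of these kept their calls with any 1 library left out, and their groups did not overlap.

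**Figure D3:**
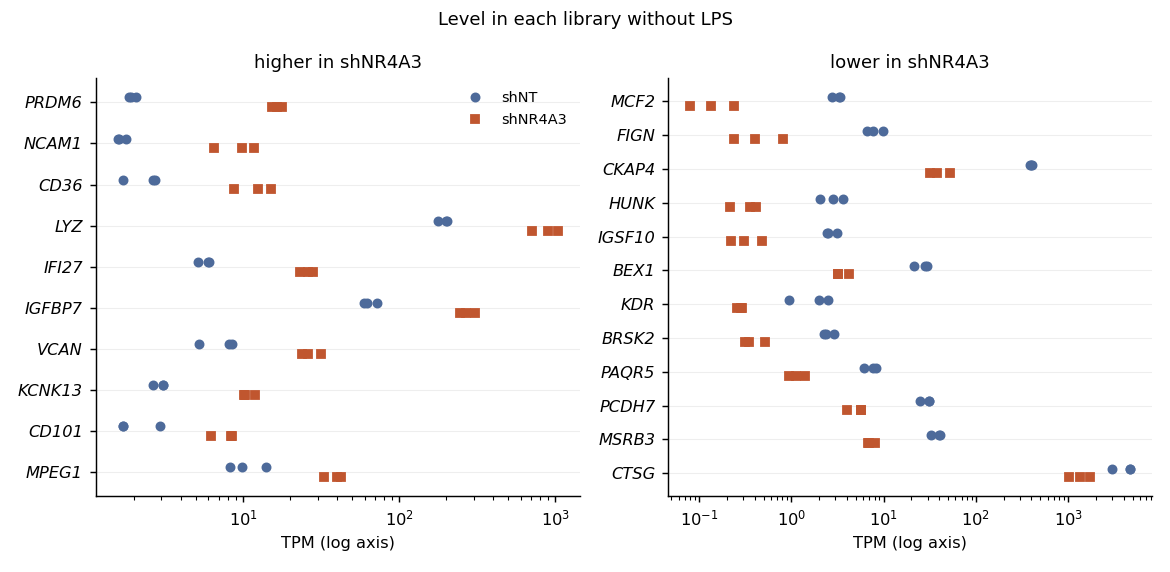
Level in each unstimulated library, in TPM on a logarithmic axis, of 10 genes called higher (left) and 12 called lower (right) in shNR4A3 cells. Blue circles are the 3 shNT libraries and orange squares the 3 shNR4A3 libraries, and the groups of every gene shown are apart, with CKAP4 at 381 TPM or more in shNT and 52.6 TPM or less in shNR4A3.

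The called falls with the largest difference in mean TPM were, in order of that difference, those of SRGN, CTSG, TIMP3, RN7SL2, CKAP4 and CCL5. SRGN, the proteoglycan core that packs granule contents, had 10613, 10662 and 10516 TPM in shNT cells and 7213, 7252 and 6545 TPM in shNR4A3 cells (log2 fold change -0.55, SE 0.0837, adjusted p = 0.00135). CTSG had 2993, 4652 and 4734 TPM against 1012, 1727 and 1341 TPM (log2 fold change -1.56, SE 0.177, adjusted p = 0.000151). TIMP3, an inhibitor of metalloproteinases, had 1815, 1585 and 1413 TPM against 678, 1009 and 835 TPM (log2 fold change -0.89, SE 0.126, adjusted p = 0.000766). The 3 genes separate the groups at high depth. RN7SL2, the signal recognition particle RNA, is a doubtful member of these 6, since its shNT libraries had 702, 727 and 104 TPM against 78.4, 176 and 150 TPM, it lacks a poly(A) tail and near-identical copies may share its reads. Its log2 fold change was -1.91 (adjusted p = 0.0384), a call that ended by DESeq2 (adjusted p = 0.17), in the fit of all 18 libraries (0.209) and without any library but shNT replicate 3 (0.0752 to 0.153).

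The abundant genes that rose were TMSB4X, the actin-binding peptide thymosin beta 4, with 4149, 3697 and 3683 TPM against 5126, 4921 and 4765 TPM (log2 fold change 0.41, adjusted p = 0.0131), and GPX1, glutathione peroxidase 1, with 2158, 2183 and 1912 TPM against 2867, 3220 and 2727 TPM (log2 fold change 0.54, adjusted p = 0.00367). GRN, the lysosomal protein progranulin, had 509, 459 and 410 TPM against 919, 790 and 673 TPM (log2 fold change 0.84, adjusted p = 0.00129). RNASE2, a granule ribonuclease, and S100A11 rose by 0.45 and 0.41 (adjusted p = 0.0308 and 0.0183). The call of TMSB4X ended without shNR4A3 replicate 1 (adjusted p = 0.0538), that of RNASE2 without any library but shNT replicate 3 (0.0538 to 0.0865), and that of S100A11 without shNT replicates 2 or 3 or shNR4A3 replicates 1 or 3 (0.0524 to 0.0864). The last 2 ended also in the fit of all 18 libraries (0.0744 and 0.0913).

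Genes of the monocyte-to-macrophage program had more rises than falls. Of the 33 tested members of the list of macrophage differentiation and scavenger receptor genes 9 rose and 2 fell, against 7.23% called over all genes, and their median log2 fold change was 0.301 (0.409 without shNR4A3 replicate 2, with 10 rising and 2 falling). Beside CD36, the C-type lectin CLEC10A rose by 2.11 (adjusted p = 0.0125), and CLEC12A, CLEC7A and SIGLEC1, which were outside the naming rule, rose by 1.47, 1.24 and 0.99 (adjusted p = 0.000464, 0.0145 and 0.00027). APOC1, an apolipoprotein, had 215, 122 and 158 TPM in shNT cells and 85.0, 62.8 and 73.4 TPM in shNR4A3 cells, and fell by 1.11 (adjusted p = 0.00187). The tetraspanin CD9 fell by 1.09 (adjusted p = 0.00761). The most abundant member, CHI3L1, was at -0.30 and did not pass (adjusted p = 0.052), but passed with the block (0.0137), by DESeq2 (0.016) and in the fit of all 18 libraries (0.0446). The call of CLEC10A ended without shNT replicate 3 or shNR4A3 replicate 1 (adjusted p = 0.0636 and 0.0691), and that of CLEC7A without shNT replicate 2 or shNR4A3 replicates 1 or 3 (0.0503 to 0.0701).

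The monocytic markers themselves split in the same way. Of 16, 6 rose and 1 fell, also without shNR4A3 replicate 2, with a median of 0.256. CSF1R, the receptor for macrophage colony-stimulating factor, had 101, 75.9 and 77.7 TPM in shNT cells and 182, 157 and 160 TPM in shNR4A3 cells (log2 fold change 1.02, SE 0.121, adjusted p = 0.000205). LYZ, ITGB2, ITGAM, CD14 and SPI1 were the others that rose, and CTSG was the one that fell. CD14, the LPS co-receptor, had groups that overlapped, with 32.2, 18.2 and 17.3 TPM against 53.3, 31.4 and 35.2 TPM, and its call (log2 fold change 0.87, adjusted p = 0.0489) ended without shNT replicates 2 or 3 or shNR4A3 replicates 1 or 3 (adjusted p from 0.0768 to 0.193), by DESeq2 (0.189) and in the fit of all 18 libraries (0.187). The calls of ITGAM (log2 fold change 0.80, adjusted p = 0.0146) and SPI1 (0.37, adjusted p = 0.0411) ended too, ITGAM by DESeq2 (0.0662) and without shNT replicates 2 or 3 or shNR4A3 replicate 1 (0.0515 to 0.077), and SPI1 without any 1 library (0.057 to 0.164) and in the fit of all 18 (0.147). The summed level of the 16 markers was 7337, 8715 and 8396 TPM in shNT and 6889, 7032 and 6431 TPM in shNR4A3 libraries. Of this, CTSG had a mean of 4126 TPM in shNT and 1360 TPM in shNR4A3 libraries. In bulk RNA, a change in the share of cells in a given state and a change in RNA per cell cannot be told apart.

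Among 34 tested myeloid transcription factors 8 rose and 3 fell (5 and 4 without shNR4A3 replicate 2), with a median of 0.219. KLF4, a factor of monocyte differentiation, had 19.4, 15.3 and 16.9 TPM against 37.3, 30.4 and 26.4 TPM (log2 fold change 0.92, SE 0.146, adjusted p = 0.00181). MAF, which acts in macrophages, rose by 1.33 (adjusted p = 0.00795) and ID1, an inhibitor of basic helix-loop-helix factors, by 0.71 (adjusted p = 0.00409). IRF8, outside the naming rule, rose by 0.65 (adjusted p = 0.00267). TCF4 fell by 0.98 (adjusted p = 0.000702), the immediate early factor EGR1 by 0.72 (adjusted p = 0.0246) and the granulocytic repressor GFI1 by 0.41 (adjusted p = 0.0214). CEBPA, the most abundant of the list, was at 0.08 (adjusted p = 0.758). The call of EGR1 ended without shNT replicates 1 or 2 or shNR4A3 replicates 1 or 3 (adjusted p from 0.0728 to 0.107) and that of GFI1 without shNT replicates 2 or 3 or shNR4A3 replicate 3 (0.0517 to 0.105), and both ended with MAF in the fit of all 18 libraries (0.218, 0.469 and 0.0849). The list of 28 tested AP-1 and other immediate early genes left out EGR1 and the NR4A genes, which are counted elsewhere, and 6 of it rose, among them SGK1 by 1.35 (adjusted p = 0.00264), DUSP10 by 0.88 (adjusted p = 0.000262) and FOS by 0.72 (adjusted p = 0.00171). None of the 28 fell. With the block there were 10 rises and no fall, by DESeq2 7 and none, without shNR4A3 replicate 2 5 and none, and at an unadjusted p under 0.05, 9 higher and 1 lower.

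**Figure D4:**
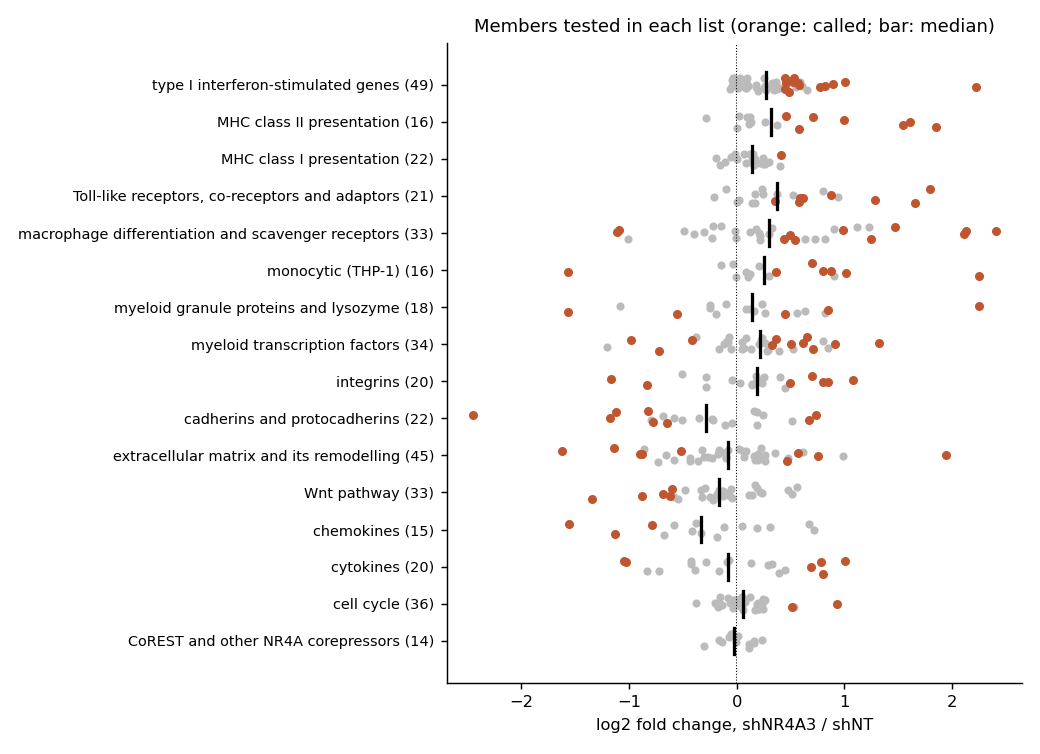
Log2 fold change (shNR4A3 over shNT) of every tested member of 16 gene lists, with the number tested in brackets. Orange points are called, grey points are not, black bars are list medians and the dotted line is the median of all genes, -0.003. The interferon and class II lists have called members on the right only, and the chemokine and Wnt lists on the left only.

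Interferon-stimulated genes, which cells switch on in antiviral defence, rose where they changed. Of 49 tested, 13 rose and none fell, against 3.91% higher and 3.32% lower over all genes, with a median of 0.271, and 10 rose without shNR4A3 replicate 2 and none fell. At an unadjusted p under 0.05, 22 were higher and none lower (10.7% and 10.2% of all genes), and DESeq2 called 15 higher and none lower. IFI27, a mitochondrial interferon-induced protein, was the farthest, from 6.06, 5.17 and 5.92 TPM to 26.1, 28.2 and 23.2 TPM (log2 fold change 2.22, SE 0.127, adjusted p = 3.5e-07). The others were smaller. The antiviral factor TRIM22 rose by 1.01 (adjusted p = 0.00131) and EPSTI1 by 0.90 (adjusted p = 0.00146), and the abundant IFI6 went from 398, 464 and 501 TPM to 548, 717 and 590 TPM (log2 fold change 0.49, adjusted p = 0.0118). The call of IFI6 ended without shNT replicate 1 (adjusted p = 0.0531) and in the fit of all 18 libraries (0.334).

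Genes of antigen presentation were counted by class. Of 16 tested class II genes, which load peptides of engulfed proteins for CD4 T cells, 7 rose and none fell (median 0.321). The counts were again 7 and none at an unadjusted p under 0.05, and 6 and none by DESeq2 and without shNR4A3 replicate 2. HLA-DRB1, the most abundant, had 193, 177 and 161 TPM in shNT cells and 239, 233 and 235 TPM in shNR4A3 cells (log2 fold change 0.46, adjusted p = 0.0138). IFI30, a lysosomal thiol reductase, rose by 1.85 (adjusted p = 0.0051), HLA-DPB1 by 1.61 (adjusted p = 0.0247) and HLA-DPA1 by 1.54 (adjusted p = 0.0062), all 3 from under 1 TPM. The call of HLA-DRB1 ended without shNT replicate 3 or shNR4A3 replicates 1 or 3 (adjusted p from 0.0518 to 0.0646), and that of HLA-DPB1 by DESeq2 (0.0667) and without shNT replicates 2 or 3 or shNR4A3 replicates 1 or 2 (0.052 to 0.122). Reads of such paralogs may be split between copies. Of 22 class I genes, which present peptides from within the cell, 1 rose, the proteasome activator PSME2, at 0.41 (adjusted p = 0.00901), and the list's median was 0.143. With the block 4 class I genes rose, and without shNR4A3 replicate 2 it was 1.

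Toll-like receptors and their partners also had calls in 1 direction. Of 21 tested members 8 rose and none fell (median 0.378), and 6 rose without shNR4A3 replicate 2 and none fell. At an unadjusted p under 0.05, 12 were higher and none lower (10.7% and 10.2% of all genes), and DESeq2 called 7 higher and none lower. CD180 and LY86, the 2 chains of a receptor complex related to TLR4, rose together. CD180 had 2.36, 1.43 and 2.05 TPM against 6.86, 4.51 and 6.43 TPM (log2 fold change 1.66, SE 0.225, adjusted p = 0.000572). LY86 had 36.6, 28.4 and 28.2 TPM against 77.6, 67.5 and 74.3 TPM (log2 fold change 1.28, SE 0.141, adjusted p = 0.000113). TLR7, a sensor of viral RNA, rose by 1.79 (adjusted p = 0.0137) from 0.438 TPM or less, and lost its call without shNT replicate 2 or 3 or shNR4A3 replicate 3 (adjusted p = 0.0702, 0.0631 and 0.065).

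The chemokine calls were falls. Of 15 tested, 3 fell and none rose, with a median of -0.328, and the counts were the same without shNR4A3 replicate 2 and by DESeq2. At an unadjusted p under 0.05 there were again 3 lower and none higher, so no further member had one, where 20.9% of all genes did. CCL5, the most abundant, had 572, 485 and 456 TPM in shNT cells and 279, 281 and 293 TPM in shNR4A3 cells (log2 fold change -0.78, SE 0.101, adjusted p = 0.000404). CCL2, the monocyte attractant MCP-1, had 14.6, 9.12 and 8.62 TPM against 3.41, 3.42 and 3.81 TPM (log2 fold change -1.56, SE 0.248, adjusted p = 0.00181), and CCL23 fell by 1.13 (adjusted p = 0.00366). The shNR4A3 libraries of CCL5 and CCL2 were close to one another, below all shNT libraries.

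Of 17 chemokine and chemoattractant receptors 3 rose and 1 fell, as without shNR4A3 replicate 2. CXCR4, the receptor for CXCL12, had 34.0, 24.4 and 23.2 TPM against 73.6, 48.6 and 38.9 TPM (log2 fold change 1.03, SE 0.218, adjusted p = 0.0113). CCR2, the receptor for CCL2, rose by 0.79 (adjusted p = 0.0144) and CCR1 by 0.73 (adjusted p = 0.0147), while CXCR3 fell by 1.29 (adjusted p = 0.00156). Without shNT replicate 2 the calls of CXCR4, CCR2 and CCR1 ended (adjusted p = 0.0581, 0.0792 and 0.0689), as did that of CCR1 without shNR4A3 replicate 1 (0.0505), that of CCR2 by DESeq2 (0.0784), and those of CCR2 and CCR1 in the fit of all 18 libraries (0.234 and 0.0839).

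Cytokines were mixed, with 4 rising and 2 falling among 20 (3 and 2 without shNR4A3 replicate 2). TNF, a main inflammatory cytokine, had 72.3, 71.9 and 51.6 TPM in shNT cells and 19.3, 39.8 and 35.2 TPM in shNR4A3 cells (log2 fold change -1.02, SE 0.211, adjusted p = 0.0097). CSF1, the ligand of CSF1R, fell by 1.05 (adjusted p = 0.023). TNFSF10, the death ligand TRAIL, rose by 1.01 (adjusted p = 0.00398), TNFSF13B, the B cell factor BAFF, by 0.80 (adjusted p = 0.0104) and IL1RN, which blocks the interleukin 1 receptor, by 0.78 (adjusted p = 0.00175). TNFSF13, the B cell factor APRIL, was the other that rose, by 0.69 (adjusted p = 0.0328). Without shNT replicate 2 the adjusted p was 0.0547 for TNF, 0.109 for CSF1, 0.0642 for TNFSF13 and 0.0534 for TNFSF13B. It was 0.0703 for CSF1 without shNR4A3 replicate 1 and 0.0541 in the fit of all 18 libraries, and up to 0.122 for TNFSF13 without either of the other shNT libraries or shNR4A3 replicates 1 or 2.

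Adhesion genes had calls in both directions. Of 20 integrin genes 5 rose and 2 fell (median 0.185, with 8 and 3 with the block and 4 and 2 without shNR4A3 replicate 2). The leukocyte integrins were among those that rose, with ITGAL at 1.08 (adjusted p = 0.000132), ITGB7 at 0.85 (adjusted p = 0.00146) and ITGB2, the partner chain of ITGAL, at 449, 431 and 389 TPM against 697, 684 and 614 TPM (log2 fold change 0.70, SE 0.0968, adjusted p = 0.00068). ITGB5, a vitronectin receptor chain, fell by 0.84 (adjusted p = 0.00134) and ITGA9 by 1.17 (adjusted p = 0.0309), the latter a call that ended without shNT replicates 1 or 2 or shNR4A3 replicates 1 or 3 (0.0767 to 0.107). Of 22 cadherins and protocadherins 6 fell and 2 rose (median -0.284, and 8 and 2 without shNR4A3 replicate 2). PCDH7 had 24.9, 31.3 and 30.9 TPM against 4.02, 5.71 and 5.75 TPM. The giant cadherin DCHS1 fell by 1.17 (adjusted p = 0.00119) and the desmosomal cadherin DSG2 by 1.12 (adjusted p = 0.000325), while CDH23 and CLSTN2 rose by 0.73 and 0.68 (adjusted p = 0.0027 and 0.00297). Of 30 immunoglobulin-family and other adhesion genes 4 rose, NCAM1 and the guidance receptor ROBO1 (1.02, adjusted p = 0.000646) among them, and NCAM2 fell by 0.46 (adjusted p = 0.00432). With the block 7 of them rose and 3 fell, and without shNR4A3 replicate 2 the counts were again 4 and 1.

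Matrix and growth factor genes likewise rose and fell. Of 45 matrix and remodelling genes 4 rose and 5 fell (8 and 11 with the block, 2 and 6 without shNR4A3 replicate 2). The growth factor modulators held 3 calls among 11 (5 with the block, 4 without shNR4A3 replicate 2), with IGFBP7 up and CTGF (CCN2) down, from 17.7, 20.6 and 18.1 TPM to 4, 6 and 4.26 TPM (log2 fold change -1.95, SE 0.182, adjusted p = 2.47e-05). IGF1R fell by 1.14 (adjusted p = 0.00144). Of 25 angiogenic genes 3 rose and 4 fell (2 and 4 without shNR4A3 replicate 2). Beside KDR, the growth factor PGF fell by 1.85 (adjusted p = 0.00831) and the Notch ligand DLL4 by 1.54 (adjusted p = 0.00172), while the co-receptor NRP1 rose by 0.85 (adjusted p = 0.0178). The call of NRP1 ended without shNT replicate 2 or shNR4A3 replicate 3 (adjusted p = 0.0709 and 0.0862), and that of DLL4 in the fit of all 18 libraries (0.119).

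Calcium and signalling genes gave further calls. Apart from CACNA2D1, none of the 10 tested subunits of voltage-gated calcium channels was called, the most abundant, CACNA2D4, being at -0.03 (adjusted p = 0.94), and 3 of the 10 were called with the block, CACNA2D1 included, and 1 without shNR4A3 replicate 2. Of 31 store-operated and intracellular calcium genes 6 rose and none fell, but this direction did not hold in other fits. Without shNR4A3 replicate 2 there were 5 rises and 3 falls, the block gave 7 and 6, DESeq2 6 and 1, and an unadjusted p under 0.05 gave 8 in each direction. TRPM2, a channel opened by oxidative stress, rose by 0.75 (adjusted p = 0.00471) and MCU, the pore of the mitochondrial uniporter, by 0.59 (adjusted p = 0.00429). Of 33 Wnt pathway genes 5 fell and none rose (median -0.162), where DESeq2 and the fit without shNR4A3 replicate 2 called 4 lower and none higher, the block 5 lower and 2 higher, and an unadjusted p under 0.05 gave 8 lower and 3 higher. They were led by the R-spondin receptor LGR4, with 27.4, 31.0 and 34.2 TPM against 9.68, 13 and 12.6 TPM (log2 fold change -1.35, SE 0.119, adjusted p = 1.86e-05), and the Wnt antagonist SFRP1 at -0.87 (adjusted p = 0.000345).

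Granule and cytoskeletal proteins had calls in both directions. Of 18 granule proteins 3 rose, LYZ, RNASE2 and the lysosomal protease gene CTSB, and 2 fell, CTSG and SRGN (median 0.142, with 6 and 3 with the block and 2 and 2 without shNR4A3 replicate 2). CTSB had 148, 102 and 97.4 TPM in shNT cells and 224, 185 and 195 TPM in shNR4A3 cells (log2 fold change 0.85, SE 0.148, adjusted p = 0.00318). Of 11 S100 genes 3 rose and none fell (median 0.374), with 3 higher by DESeq2 and without shNR4A3 replicate 2, 5 with the block and 5 at an unadjusted p under 0.05 and none lower in any of these. Those that rose were S100A11, S100A4 at 0.42 (adjusted p = 0.0143) and S100A10 at 0.37 (adjusted p = 0.0369). The call of S100A4 ended without shNT replicates 2 or 3 or shNR4A3 replicate 1 (adjusted p from 0.0555 to 0.0709), and that of S100A10 without any library but shNR4A3 replicate 2 (0.0544 to 0.173) and in the fit of all 18 (0.143). Of 39 cytoskeletal genes 5 rose and 2 fell (7 and 4 with the block, 4 and 2 without shNR4A3 replicate 2). VIM, which encodes the intermediate filament vimentin, had 107, 109 and 104 TPM against 165, 162 and 221 TPM (log2 fold change 0.82, SE 0.119, adjusted p = 0.000971), and ANXA2, a membrane-binding annexin, rose by 0.58 (adjusted p = 0.00761).

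Channels, neural genes and receptors of the NR4A kind had calls in both directions. Each share was above the 7.23% of all genes tested, but no excess is read from this. The NR4A list counts the targeted NR4A3 among its calls, and the lists were chosen with earlier results of these data known. Of 15 potassium and sodium channels 3 rose and 1 fell (2 and 2 without shNR4A3 replicate 2), the latter KCNQ5, at -0.59 (adjusted p = 0.00865). Of 23 neural transcription factors and synaptic genes 2 rose and 3 fell, as without shNR4A3 replicate 2, and the study had picked several of them from these libraries. PRDM8, a relative of PRDM6, went the other way, with 29.6, 32.9 and 28.2 TPM against 15.6, 21.7 and 16.7 TPM (log2 fold change -0.71, SE 0.127, adjusted p = 0.00399). Of the 22 tested NR4A and partner receptors 2 rose and 2 fell (5 and 4 with the block, 1 and 2 without shNR4A3 replicate 2), with a median of -0.016. Apart from NR4A3 the fall was in NR2F6, an orphan receptor of the COUP family, with 55.0, 67.5 and 54.4 TPM against 31.9, 40.4 and 33.5 TPM (log2 fold change -0.70, SE 0.126, adjusted p = 0.00402, and 0.0677 in the fit of all 18 libraries). RXRA, the partner with which NR4A1 and NR4A2 form heterodimers, was the most abundant and did not pass (0.28, adjusted p = 0.0843), but passed with the block (0.0231).

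Of 29 survival and death genes 3 rose and 3 fell (1 and 2 without shNR4A3 replicate 2). A pair of TRAIL receptors fell, TNFRSF10A from 21.5, 19.1 and 24.4 TPM to 8.92, 12 and 12.6 TPM (log2 fold change -0.90, SE 0.145, adjusted p = 0.00187) and the decoy receptor TNFRSF10C by 0.98 (adjusted p = 0.00389), while their ligand TNFSF10 rose. BCL2A1, an antiapoptotic gene, fell by 1.20 (adjusted p = 0.0244), a call that ended without shNT replicates 1 or 2 or shNR4A3 replicates 2 or 3 (0.0734 to 0.0993) and in the fit of all 18 libraries (0.125). Of 26 NRF2 target and AKR1 genes 2 rose and 1 fell (4 and 1 with the block, 2 and none without shNR4A3 replicate 2). HMOX1, which degrades heme, was at 0.92 (adjusted p = 0.017), and its call ended by DESeq2 (0.0833), in the fit of all 18 libraries (0.18) and without shNT replicate 2 or shNR4A3 replicate 3 (0.055 and 0.0837). Of 21 purine genes 1 rose and 1 fell (4 and 1 with the block, 1 and 1 without shNR4A3 replicate 2), the latter the AMP deaminase gene AMPD3, at -0.87 (adjusted p = 0.00316).

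Several further lists held at most 4 calls each in the fit without the block, where the background is 7.23%, and more with it, where the background is 14.8%. The AKT list was above the background in both fits. Of its 4 calls, that of PIK3R5 alone held with any 1 library left out. The calls of PIK3CA (-0.39, adjusted p = 0.0473) and IRS2 (-0.34, adjusted p = 0.0388) ended without several libraries (up to 0.152 and 0.146). That of PIK3R3 (0.54, adjusted p = 0.0138) ended without shNT replicate 2 (0.0642). Of 36 cell cycle genes 2 were called, CCND1, which encodes cyclin D1 (0.93, adjusted p = 0.000406), and the mitotic kinase gene AURKB (0.52, adjusted p = 0.0309), and the median was 0.057. The call of AURKB ended without shNT replicates 1 or 3 or shNR4A3 replicates 2 or 3 (0.0943 to 0.116), and 7 cell cycle genes were called with the block, all higher, and 2 without shNR4A3 replicate 2, 1 each way. None of the 14 CoREST and other NR4A corepressor genes, 12 histone and linker genes or 7 tested metallothionein genes was called by edgeR, with medians of -0.022, 0.048 and 0.129. At an unadjusted p under 0.05 there were 2, 3 and 1, DESeq2 called none of them, the block called 2, 2 and 1, and the fit without shNR4A3 replicate 2 none. Among 14 genes listed with the RNA interference machinery, 1 was called, the RNA-editing gene ADARB1, at -0.49 (adjusted p = 0.0148, but 0.0579 without shNT replicate 3 and 0.0523 without shNR4A3 replicate 1). Of the 14, 3 were called with the block and 1 without shNR4A3 replicate 2. Of 28 glycolysis and hypoxia genes 2 were called (7 with the block), of 33 AKT pathway genes 4 (9 with the block) and of 29 cholesterol genes 2 (4 with the block). Without shNR4A3 replicate 2 these were 2, 4 and none. The 2 cholesterol genes, INSIG1 and MSMO1, both lost their calls without shNR4A3 replicate 2 (adjusted p = 0.071 and 0.0922) and without several other libraries (up to 0.0727 and 0.13).

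Of the 282 genes called at 2-fold, 240 are annotated as protein coding and 42 are not, of which 17 rose and 25 fell. Besides LINC00461, the long non-coding RNA LINC01133 rose by 1.90 (adjusted p = 0.000864), from 1.34, 0.726 and 1.33 TPM to 4.30, 3.59 and 4.48 TPM. The antisense gene IL12A-AS1 fell by 2.05 (adjusted p = 6.25e-05), from 7.76, 7.06 and 7.42 TPM to 2.11, 1.35 and 1.67 TPM. These 3 were named after their values were seen. The strand setting of the counting is not given in the sources used here, so reads of an antisense gene and its partner may not be told apart.

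The LPS-treated libraries of the same 2 lines share no library with the unstimulated comparison, and there edgeR called 1005 of 15578 genes, or 6.45% (3401 with the block). With an LPS library left out in turn this count ran from 383 (without shNT replicate 2) to 1693 (without shNR4A3 replicate 2). Of the 282 genes called at 2-fold without LPS, 272 were tested with LPS, 265 of them had the same direction and 169 were called in that direction. Over these 272 genes the median size was a log2 of 1.32 without LPS and 1.22 with LPS. PRDM6 was at 3.41 with LPS (adjusted p = 1.36e-05), CACNA2D1 at 4.55 (adjusted p = 0.00106), LYZ at 2.29 (adjusted p = 2.03e-05), MCF2 at -3.74 (adjusted p = 0.000744), FIGN at -3.91 (adjusted p = 5.31e-05) and CKAP4 at -2.92 (adjusted p = 2.59e-06). The lines are the same, so these libraries repeat the line and not the knockdown.

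Some inflammatory genes had unlike values with LPS. TNF was at -0.12 with LPS (adjusted p = 0.507) and CCL2 at -0.28 (adjusted p = 0.596, and 0.0112 with the block). BCL2A1 was at -1.20 without LPS and at 0.49 with it (adjusted p = 0.255, and 0.00408 with the block). In a model of line, LPS and their product over 12 libraries, the interaction was 0.90 for TNF (adjusted p = 0.791, and 0.217 with the block), 1.28 for CCL2 (0.942, and 0.0321 with the block) and 1.69 for BCL2A1 (0.718, and 0.046 with the block). Of 16428 genes, 824 had an interaction at an unadjusted p under 0.05, about the share this limit lets through when no gene differs. After adjustment edgeR called no interaction and DESeq2 called 10. This count depended on the fit, with 22 called with the block, 138 with low genes kept in and 44 without shNR4A3 replicate 2 of the LPS libraries, where BCL2A1 was at an adjusted p of 0.0208 and CCL2 at 0.214.

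**Figure D5:**
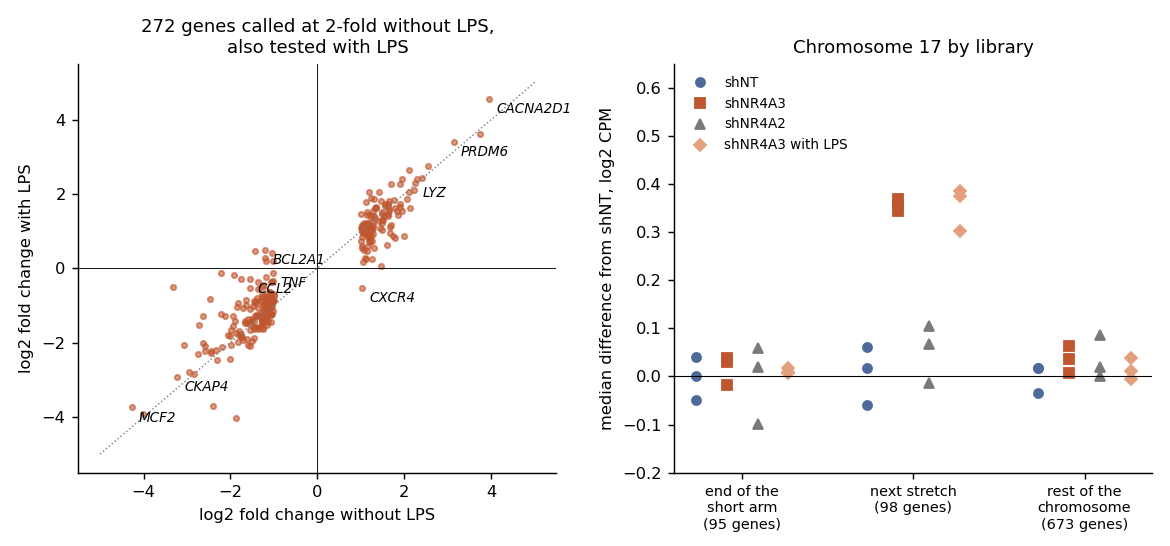
Left, log2 fold change (shNR4A3 over shNT) with LPS against that without LPS for the 272 genes called at 2-fold without LPS and tested in both, with the line of equality dotted. Right, median difference in log2 CPM from the mean of the 3 shNT libraries of the same condition, for genes in 3 stretches of chromosome 17, with a point for each library; the 6 shNR4A3 libraries lie between 0.303 and 0.385 in the middle stretch and between -0.017 and 0.063 in the other 2.

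The second knockdown line gave a further set of values. The comparison of shNR4A3 with shNR4A2 cells without LPS, which shares the shNR4A3 libraries, had 480 calls among 15584 genes (3.08%), and 1800 with the block. It had 249 without shNR4A3 replicate 1, 251 without shNR4A3 replicate 3, 323 without shNR4A2 replicate 3 and 470 without shNR4A2 replicate 2. PRDM6 was at 3.26 there (adjusted p = 4.58e-08), FIGN at -4.07 (adjusted p = 5.8e-06), CKAP4 at -2.08 (adjusted p = 5.21e-05), IGFBP7 at 1.62 (adjusted p = 3.06e-05), IFI27 at 1.90 (adjusted p = 0.000225) and CCL5 at -0.89 (adjusted p = 0.000204). These 6 genes thus differed from both other lines. POU4F2, a neural transcription factor, AKR1C2, an aldo-keto reductase, and HLA-F, which the study names for its knockdown lines, were at -4.49, -3.68 and -2.15 there (adjusted p = 3.06e-05, 4.17e-08 and 0.00116), and at -0.23, -0.18 and 0.41 against shNT (adjusted p = 0.841, 0.492 and 0.608). LYZ was at 0.58 (adjusted p = 0.0978), VCAN at 0.20 (adjusted p = 0.624), NCAM1 at -0.45 (adjusted p = 0.284), HUNK at 0.20 (adjusted p = 0.891) and IGSF10 at -0.30 (adjusted p = 0.767), and did not pass. With the block LYZ and NCAM1 passed (adjusted p = 0.000153 and 0.00317), as did LYZ by DESeq2 (0.0167). For NCAM1 the shNR4A2 libraries had 10.4, 13.6 and 15.6 TPM, above or among the shNR4A3 values of 6.54, 9.80 and 11.7 TPM. For LYZ they had 675, 462 and 709 TPM, above all shNT libraries, with 1 library at the lowest shNR4A3 value. Of the 1108 genes called against shNT, 190 were also called against shNR4A2. These held 2 of the 13 interferon, 3 of the 11 macrophage and 2 of the 3 chemokine genes. They held none of the 7 class II, 8 Toll-like receptor or 3 S100 genes. Over shNT, the list medians of shNR4A2 cells were 0.309 for class II, 0.341 for Toll-like receptor and 0.297 for macrophage genes. They were 0.328 for S100, 0.128 for interferon and 0.085 for chemokine genes, with the shNT libraries shared.

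The position of the genes in the genome, which played no part in the choice of groups, was examined last. In 257 windows of 10 Mb that held at least 20 tested genes, the median log2 fold change ran from -0.26 to 0.194, and 217 windows were within 0.1 of 0, with 30 below and 10 above that range. The lowest was on chromosome 19, from 20 to 30 Mb (43 genes, 7 called lower and none higher), at -0.159 with LPS and at -0.009 in the comparison with shNR4A2. The highest was on the short arm of chromosome 17, from 10 to 20 Mb (78 genes, 9 called higher and 3 lower), and the window before it, from 0 to 10 Mb, was at 0.159 (170 genes, 24 called higher and none lower). Of the 936 genes tested on chromosome 17 as a whole, 62 (6.62%) were called higher and 15 (1.6%) lower, together 8.23% against 7.23% over all genes.

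In windows of 2 Mb, a size chosen after those values were seen, the shift began sharply and ended less so. Up to 6 Mb, 95 genes had a median of 0.012. From 6 to 16 Mb, the windows of highest median joined after they were seen, 98 genes had a median of 0.361 and 89 of them (90.8%) had a positive fold change, against 49.6% of all tested genes. Of the 98, 25 were called higher and 1 lower. The medians then went to 0.112 from 16 to 18 Mb (24 genes), 0.099 from 18 to 20 Mb (31 genes) and -0.09 from 20 to 22 Mb (14 genes). From 24 Mb to the end, 673 genes had a median of 0.038. In the joined stretch the shNR4A3 libraries were at 0.343, 0.368 and 0.356 above the shNT mean, and the shNT libraries lay at 0.017, 0.061 and -0.060. The 3 shNR4A3 libraries with LPS were at 0.303, 0.375 and 0.385 above the shNT libraries with LPS, and the shNR4A2 libraries without LPS at 0.068, 0.105 and -0.013 over the whole stretch. In its last window, from 14 to 16 Mb (14 genes), the shNR4A2 libraries were raised too, at 0.339, 0.252 and 0.369, beside 0.331, 0.429 and 0.514 in the shNR4A3 libraries.

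The genes called in that stretch have varied roles. EIF5A, a translation factor, had 383, 380 and 357 TPM in shNT cells and 464, 507 and 484 TPM in shNR4A3 cells (log2 fold change 0.42, adjusted p = 0.00717). RPL26, a ribosomal protein, was at 0.37 (adjusted p = 0.0181, but 0.0555 in the fit of all 18 libraries and 0.0557 to 0.0786 without shNT replicates 2 or 3 or shNR4A3 replicates 1 or 3), ZBTB4, a DNA-binding repressor, at 0.66 (adjusted p = 0.00119), COX10, an enzyme of heme A synthesis, at 0.60 (adjusted p = 0.0104, and 0.0523 without shNT replicate 2), and PIK3R5, a regulatory subunit of PI3-kinase gamma, at 0.89 (adjusted p = 0.00102). AURKB and the cytokine TNFSF13 lie there too, so 1 call in each of the cell cycle, cytokine and, through PIK3R5, AKT lists shares this position. Apart from PIK3R5 and AURKB these genes were named after their values were seen.

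The element NR4A monomers bind, AAAGGTCA, was searched on both strands in RefSeq promoters (GRCh38.p14, 250 bases before to 50 after a start site). Promoter entries were at hand for 10573 of the tested genes, and 1.17% of these genes had the element in at least 1 of them, as did 1.22% of all 35116 entries. It was found for 2 of 452 genes called higher (0.442%) and 3 of 365 called lower (0.822%), against 1.22% of the genes not called. The first 7 bases, AAAGGTC, were in 2.88% of those called higher, 3.56% of those called lower and 3.26% of those not called, and the last 7, AAGGTCA, in 3.32%, 4.11% and 3.71%.

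The 5 called genes whose promoter holds the element are shown with 11 bases to each side, on the gene's own strand, with the element or its reverse complement in capitals.
ILDR2, chr1:166975652-166975681, minus strand: tcactccacgcTGACCTTTgggccgccggg
FGD4, chr12:32501844-32501873, plus strand: caagcctcttgTGACCTTTctccctgaatg
AKAP9, chr7:92057530-92057559, plus strand: accctctgttcTGACCTTTtcctcagggga
LGALS9, chr17:27631028-27631057, plus strand: agggaggagggAAAGGTCActggggctggg
RABGAP1L, chr1:174700851-174700880, plus strand: catatattttcAAAGGTCAgtattcctaag
ILDR2 and FGD4 both fell by 1.36 (adjusted p = 0.00906 and 0.000512) and AKAP9, an anchor of protein kinase A, by 0.53 (adjusted p = 0.0422). LGALS9, the lectin galectin 9, rose by 0.48 (adjusted p = 0.00463), from 75.9, 73.6 and 68.6 TPM to 96.7, 102 and 95.4 TPM, and RABGAP1L by 0.42 (adjusted p = 0.0317). The calls of AKAP9 and RABGAP1L ended without several libraries, AKAP9 without shNT replicates 2 or 3 or shNR4A3 replicates 1 or 2 (adjusted p from 0.0645 to 0.181) and in the fit of all 18 (0.111), and RABGAP1L without shNT replicates 2 or 3 or shNR4A3 replicates 1 or 3 (0.0532 to 0.144). A match is a description of these letters, and binding was not measured.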

How the data were processed

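RNA from unstimulated shNT and shNR4A3 THP-1 cells was sequenced by the authors as polyadenylated libraries on a HiSeq, from both ends. Their processing notes name Trimmomatic 0.36, STAR 2.5.2b and featureCounts of Subread 1.5.2, with GRCh38. The deposited values are raw read counts for each Ensembl gene identifier, with the gene length in bases (another unit) beside them. Symbols came from GENCODE 29 for 56898 of 57500 genes. No library repeated another. The labels number 3 replicates in each group, which the study's legends call independent experiments, all on 1 line per hairpin, so p-values measure the spread between experiments and not between knockdown lines.

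Genes past filterByExpr were fitted with edgeR 4.0.16 in R 4.3.3 on the 6 libraries alone (TMM, quasi-likelihood F test, Benjamini-Hochberg over all genes tested). The biological coefficient of variation was 0.107, and genes of a few counts cannot show small changes at this depth. TPM was computed from the deposited counts and lengths. DESeq2 1.42.0, RLE factors, no filter, at least 10 counts in every library of a group, a test against the 2-fold limit, all 18 libraries in 1 fit, a replicate block and each library left out were the alternatives. Replicate numbers are shared by the labels of both groups, and same-numbered libraries deviated together (residual r = 0.195, 0.159 and 0.248, each over 0.1), so blocked values stand beside the counts they move by over 1.5 times and the calls they change. List counts with the block or without shNR4A3 replicate 2, the 2 Mb windows and the 7-base elements were added after seeing the data. The procedure was tested on simulated data. The members and gene lists (38 pathway and 9 marker lists) were chosen with earlier results of these data known. Named were NR4A1 to NR4A3, the 15 higher and 15 lower protein-coding genes of largest fold change past 2-fold with groups apart and at least 1 TPM, the 6 called genes each way of largest TPM difference, the 3 called members each way and the most abundant member of each list, the markers and genes of the study's text, of which the text gives those that moved or head a list; others were named after their values were seen, and a few results are not reported here.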

Additional observations from a re-analysis of the deposited data

Results flagged for a closer look

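The CXCR4 groups lay in opposite orders without and with LPS. Every shNR4A3 library was above every shNT library without LPS, at 73.6, 48.6 and 38.9 TPM against 34.0, 24.4 and 23.2 TPM. With LPS every shNR4A3 library was below, at 25.8, 29.7 and 19.3 TPM against 37.7, 38.7 and 35.4 TPM (log2 fold change -0.53, adjusted p = 0.0535, and 0.00251 with the block). The interaction was -1.56 on the log2 scale (SE 0.305, unadjusted p = 0.000118), and with an adjusted p of 0.322 by edgeR it did not pass over the 16428 genes tested. It passed with the replicate block (adjusted p = 0.0026), by DESeq2 (0.00278), with low genes kept in (2.26e-12) and without shNR4A3 replicate 2 of the LPS libraries (0.0468). It did not pass with RLE factors (0.331) or with any of the other 11 libraries left out in turn (0.255 to 0.756). The search covered the genes named by rule.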

How the results depend on the processing

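Of the 224 genes named and tested, 13 changed sign with a library left out, none of them called in either fit (INPP5D and GRIN2D were at -0.0002, and the farthest from 0 were CDH6, SNAP25 and POU4F2, at 0.51, 0.38 and -0.23). The block added 9 calls among the 224. Of the 169 that were called, RLE factors, the stricter count minimum and the replicate block lost none, DESeq2 lost 9 (and gave 2, NR4A3 and PDGFRL, no adjusted p), all 18 libraries in 1 fit 35, keeping low genes 3 and the test against the 2-fold limit 145. Leaving out shNT replicates 1, 2 or 3 lost 28, 54 and 41 and shNR4A3 replicates 1, 2 or 3 lost 45, 21 and 42. The causes were not tested. Under the replicate block edgeR called 2267 genes without LPS, 3401 with LPS, 1800 against shNR4A2, 3733 for shNR4A2 against shNT (1019 without the block) and 22 interactions. With low genes kept in, it called 1839 with LPS, 838 against shNR4A2, 1611 for shNR4A2 against shNT and 138 interactions, and DESeq2 called 10 interactions. A test against the 2-fold limit itself left 35 of the 282 genes at 2-fold. With a library left out in turn the calls ran from 649 (without shNT replicate 3) to 975 (without shNR4A3 replicate 2) without LPS, where leaving out shNT replicate 2 gave 650, shNR4A3 replicate 1 674 and shNR4A3 replicate 3 657. They ran from 383 to 1693 with LPS, where the highest was without shNR4A3 replicate 2, from 249 to 470 against shNR4A2, from 517 to 1128 for shNR4A2 against shNT, and from 0 to 44 for the interaction. Each fit without a library rests on 2 libraries in that group. NR4A3, at 9 reads over its group, is near the depth limit.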
